A study of Mus musculus with 12 samples.

Results

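The 7SK RNA gene, Rn7sk (annotated as 7SK, ENSMUSG00000065037.1), was examined in chromatin of mouse liver. It was 1 gene of the 532 stretches covered in all deposited files, which merge into 442 regions when stretches less than 1000 bp apart are joined. The gene was set by its position: the mm9 stretch chr9:78022960-78023590, 631 bp long, holds the annotated gene, chr9:78023110-78023440 on the minus strand, with 150 bp on each side. It was proposed with its levels in these data known. The gene is 331 bp long and intergenic in the annotation, with no annotated gene over it. The nearest protein-coding gene, Ick, ended 3196 bp away on the 3′ side of 7SK. The lincRNA gene C920006O11Rik started 281 bp upstream of the 7SK start and runs in the opposite direction.

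Liver chromatin came in all 12 libraries from C57/BL6 males that were 12 to 14 weeks old. They lived in 12 h of light and 12 h of darkness, with food offered only between ZT12 and ZT24 for the last 7 days. Chromatin immunoprecipitation was followed by sequencing for 2 subunits of RNA polymerase III (Pol III), RPC1 and RPC4, for the Pol II subunit RPB2 and for 2 histone marks, and input chromatin was sequenced as the reference, with 2 libraries in each of the 6 groups. Livers were taken from 5 mice at ZT2 and 5 at ZT26 as biological replicates; which replicate number is which time, and whether the 5 livers were pooled, was not given in the sources used here, so p-values measure the spread between these libraries. The labels of the histone libraries contradict themselves: those titled H3K4 list an antibody against H3K36me3, and those titled H3K36 list one against H3K4me3. Each is named by its title below, since the labels cannot settle which mark it holds. The tissue is a mixture of cell types, so weak signal in many cells and strong signal in few cannot be told apart. The files cover stretches around Pol III genes, and liver marker genes were not analysed here.

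7SK is a small nuclear RNA that holds the elongation factor P-TEFb in an inactive complex and so sets how much of it is free to release paused Pol II. Its gene is transcribed by Pol III from a type 3 promoter, in which the TATA box and the proximal sequence element (PSE), the site of the SNAPc complex, lie upstream of the start rather than inside the gene as in tRNA genes. Transcription by Pol III ends at a run of T in the coding strand. H3K4me3 is a mark of active promoters and H3K36me3 of transcribed Pol II gene bodies.

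The promoter and the end of the gene are shown because Pol III coverage rose over the first and fell over the second. Positions are counted from +1, the annotated first base, with -1 just before it. The sequences were read from the mm9 genome on the minus strand, 5′ to 3′. In the promoter, chr9:78023431-78023590 (-150 to +10), capitals mark matches to the TATA box pattern TATANA and the PSE core pattern ACCNTNA. At the gene end, chr9:78023060-78023159 (+282 to +381), capitals mark TTTT.
7SK promoter: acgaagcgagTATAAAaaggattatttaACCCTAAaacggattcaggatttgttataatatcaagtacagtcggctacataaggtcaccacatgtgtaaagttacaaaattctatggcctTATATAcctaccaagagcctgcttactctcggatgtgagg
7SK gene end: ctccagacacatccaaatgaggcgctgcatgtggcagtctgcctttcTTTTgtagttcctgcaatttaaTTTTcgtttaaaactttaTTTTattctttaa

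A TATA box match lay at -30 to -25, and a second at -140 to -135. On either strand, TATANA was found in 24.1% of all 1064 flanks of 150 bp. The PSE core pattern matched once in the promoter, at -122 to -116, and 19.5% of all flanks held it. Whether this match is the PSE of the gene was not tested, and a PSE that departs from the pattern would be left unmarked. The octamer core TGCAAAT, a site of Oct-1, and the SPH core ACTACAA, a site of ZNF143, had no match in the 150 bp of promoter covered; 2.07% and 1.88% of all flanks held one. The B box core GTTCGA, part of the promoter inside tRNA genes, had no match in the 7SK gene, while 48.1% of the 532 stretches held one between their flanks. The first TTTT on the RNA strand began at +329 and ended at +332, 1 base past the annotated end, and the next began at +351. The promoter was 36.7% G and C and the gene 58%, against a median of 43.3% over all flanks.

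How the files count reads matters at this gene. Isolated reads covered 76 bases. Where a piece of 7SK occurs more than once in the mm9 genome, its reads appear to be divided by the number of exact matches. This was inferred from the steps of the coverage, with shared reads modelled as 75 bases long. Of the 706 read positions that touch the stretch, 168 had 2 to 5 matches in the genome; they begin at -2 to +166 and reach to +241. The annotation names 331 genes 7SK, of which only this one lay in a covered stretch. Outside -2 to +241 every read matches this place alone. Each library's coverage was therefore split into unique reads and reads shared with copies, using the steps of the coverage and the number of matches. The recovered reads left at most 0.00297% of the coverage unexplained, and 97.6% to 100% of the recovered counts per position came out whole within 0.02. The fit had more free counts than bases, so a small remainder alone does not show that the split is right. Error in the split itself was not estimated. Unique reads give a lower bound for 7SK and each read counted once gives an upper bound, since the shared reads may come from copies.

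Pol III coverage of 7SK was high in all 4 libraries. Mean coverage over the stretch was 77.3 and 66.6 reads per base for RPC1 and 105.2 and 109.8 for RPC4, against 0.971 and 0.957 in input. These values are as deposited, from files of unlike depth. As a share of its file, 7SK held 0.555% and 0.672% of the coverage in RPC1 and 0.575% and 0.567% in RPC4, against 0.226% and 0.236% in input. The recovered reads were 505 unique and 466 shared in RPC1 replicate 1, and 410 unique and 477 shared in RPC1 replicate 2. RPC4 replicate 1 had 663 unique and 713 shared reads, and RPC4 replicate 2 had 712 and 675. Input had 8 unique and 3 shared reads in replicate 1 and 9 unique reads in replicate 2.

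Among the 442 regions, 7SK was strong but not at the top. It ranked 84th and 70th from the highest in the RPC1 libraries and 78th and 85th in the RPC4 libraries. By the mean of the 4 libraries, 89.7 ± 21.1 reads per base (SD, n = 4), it ranked 78th. In RPB2 it ranked 143rd and 128th, in the H3K4-titled libraries 303rd and 317th, in the H3K36-titled libraries 177th and 302nd, and in input 246th and 245th.

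Files differ in how much of their coverage lies in enriched regions, so each comparison of level is given under 2 scalings. With libraries divided by their file totals, Pol III at 7SK was 1.34 ± 0.32 higher than input on the log2 scale (± SE; limma, adjusted p = 0.00582), and 21.2% of the 397 regions tested were called higher (adjusted p under 0.05). With libraries anchored, each divided by its trimmed mean over the 25% of regions where Pol III was lowest, it was 6.36 ± 0.32 higher (limma, adjusted p = 8.84e-10), and 71.5% of regions were called higher. The median region stood at -1.19 with file totals and at 3.75 when anchored, so 7SK lay above the median region. Each scaling divides a library by the same factor for all regions, so the 2 scalings are no separate evidence for this. RPC1 minus RPC4 was 0.10 with a 95% interval of -0.75 to 0.94 (limma, adjusted p = 1.00). That comparison called 0% of regions, and 3 regions had an unadjusted p under 0.05. Anchored, RPC1 minus RPC4 was -0.18 and 0% were called as well (limma, adjusted p = 0.968), with 4 regions at an unadjusted p under 0.05. In these fits the spread was pooled over all 6 groups. Fitted with RPC1 and RPC4 alone on file totals, the difference at 7SK was 0.10 ± 0.11 (± SE) and not called (limma, adjusted p = 0.811). That fit called 14 regions higher and 15 lower.

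Unique reads of 7SK made up 43.7 and 49.8 of every 10000 read equivalents (summed coverage divided by 76) in the RPC1 files and 43.65 and 44.3 in the RPC4 files. The RPB2 files held 12.9 and 12.3. The H3K4-titled files held 0 and 1.125, the H3K36-titled files 11.4 and 7.86, and the input files 22.45 and 26.75. The exact 95% intervals of the Pol III libraries, 39.9 to 54.9 in all, overlapped those of input, 9.70 to 50.7, which rest on 8 and 9 unique reads. The intervals of the H3K4-titled libraries, up to 2.17 and 3.29, lay below those of all other groups except the H3K36-titled one. These intervals cover counting error only, since reads amplified by PCR are not independent molecules.

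**Figure D1:**
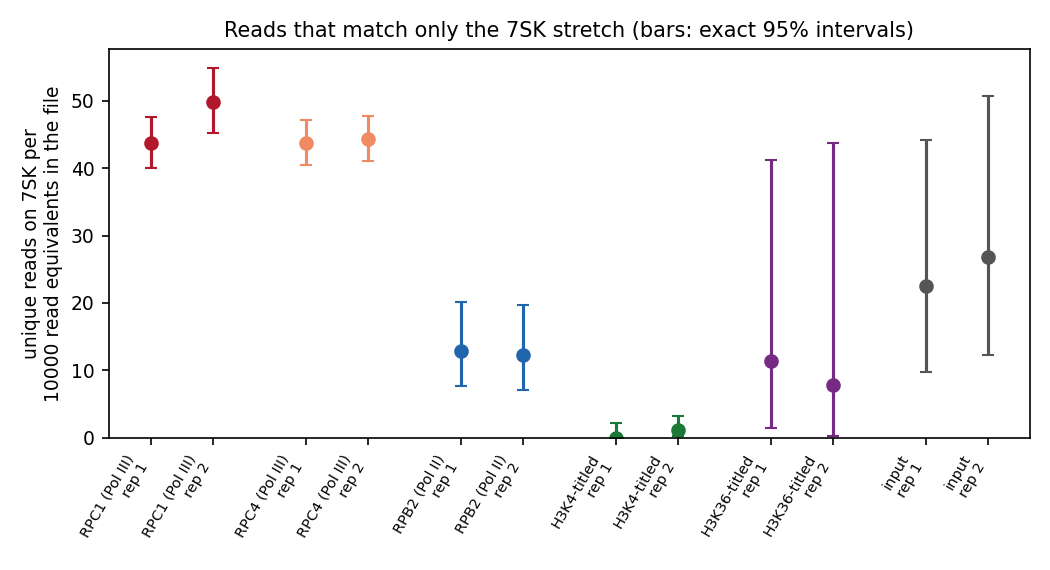
Unique reads on the 7SK stretch per 10000 read equivalents in the file, for each of the 12 libraries; points are the shares and bars exact 95% intervals. The 4 Pol III libraries lie between 43.65 and 49.8, the RPB2 libraries at 12.9 and 12.3, the H3K4-titled libraries at 0 and 1.125, and the H3K36-titled and input libraries have wide intervals.

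Along the gene, the deposited Pol III coverage had 2 maxima with a low stretch between them. RPC1 peaked at the start, with 201 reads per base at -4 and 176 at -5, and had a second maximum of 167.7 at +235 and 121 at +243. RPC4 had 208 at -4 and 196.3 at +12 near the start, and its highest values, 268.5 at +232 and 285.7 at +238, near the end. The lowest coverage in between was, for RPC1, 58.6 at +167 and 60.9 at +166, and, for RPC4, 87.8 at +78 and 82.7 at +80. As deposited, RPC1 was thus highest at the start in both libraries and RPC4 near the end in both. With each read counted once the highest values moved into the gene, to +50 and +140 in RPC1 and to +195 and +178 in RPC4.

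**Figure D2:**
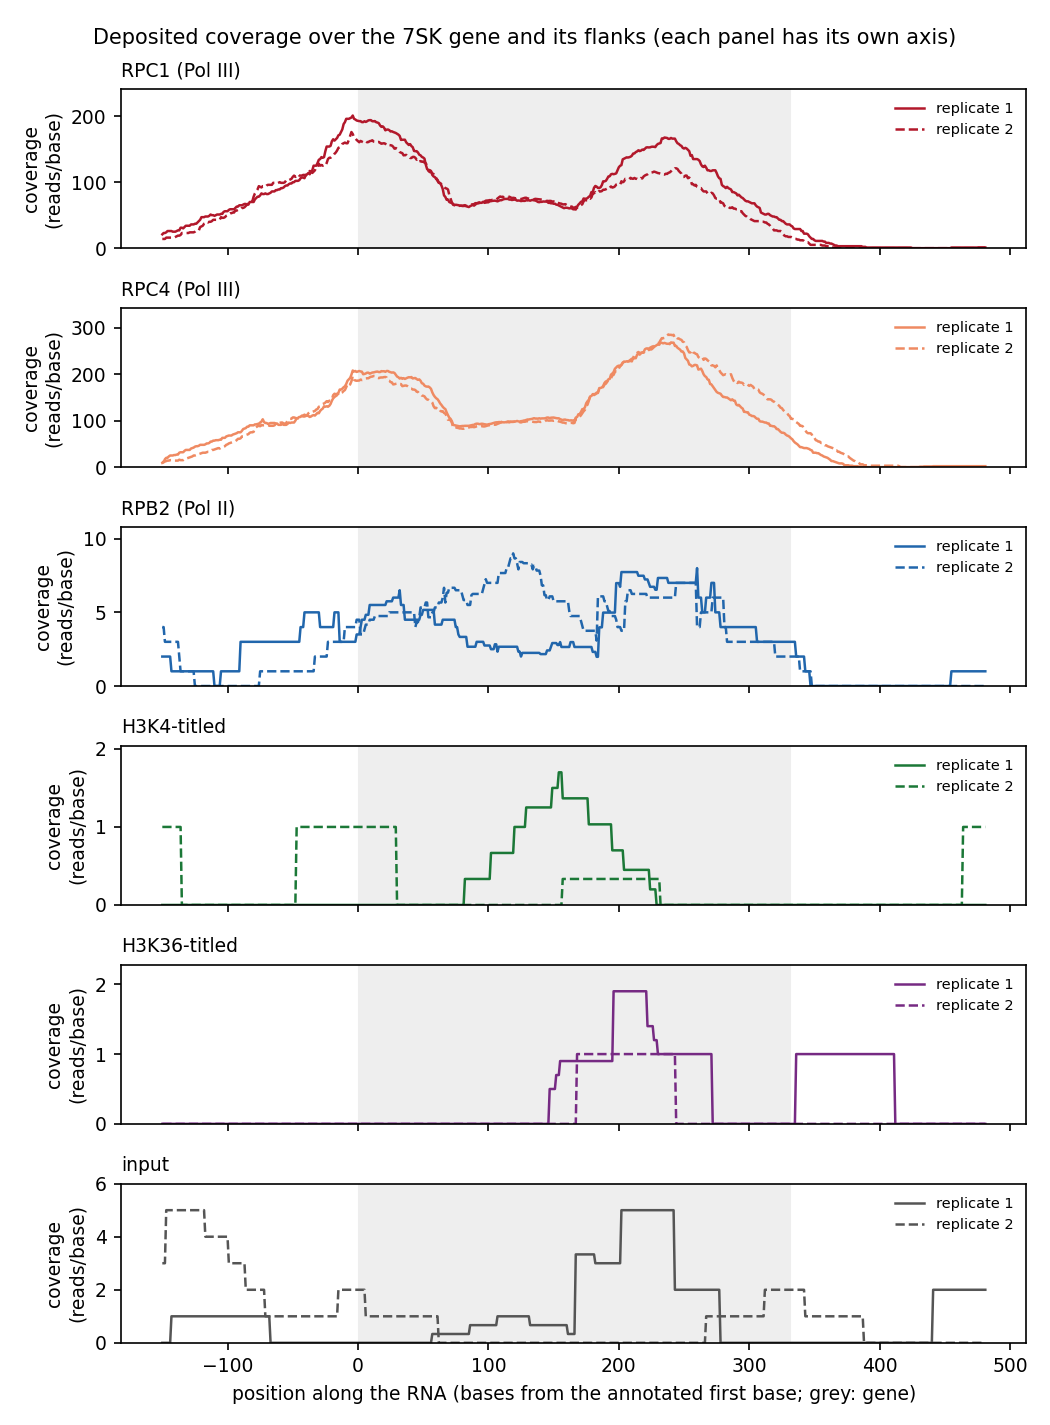
Deposited coverage in reads per base along the 7SK stretch, by group from top to bottom, with a solid line for replicate 1 and a dashed line for replicate 2; each panel has its own vertical axis and grey marks the gene. RPC1 and RPC4 rise over the upstream flank and end close behind the gene, RPB2 stays at or under 9 reads per base, and both histone groups and input rest on few reads.

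The low middle lay where reads were shared with copies. Over +111 to +220, coverage counted once was 207.9 and 207.1 in RPC1 and 341.6 and 331.5 in RPC4. Over the first 25 bases of the gene, counted the same way, it was 213.2 and 185.8 in RPC1 and 239.4 and 224.9 in RPC4. As deposited, the same bases at +111 to +220 had 89.0 and 81.0 in RPC1 and 144.9 and 141.7 in RPC4, and the first 25 bases 188.1 and 160.0 in RPC1 and 204.5 and 191.4 in RPC4. Relative to the start, the middle was thus far lower with divided reads than with each read counted once. How many of those shared reads came from this gene and how many from its copies cannot be told apart.

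**Figure D3:**
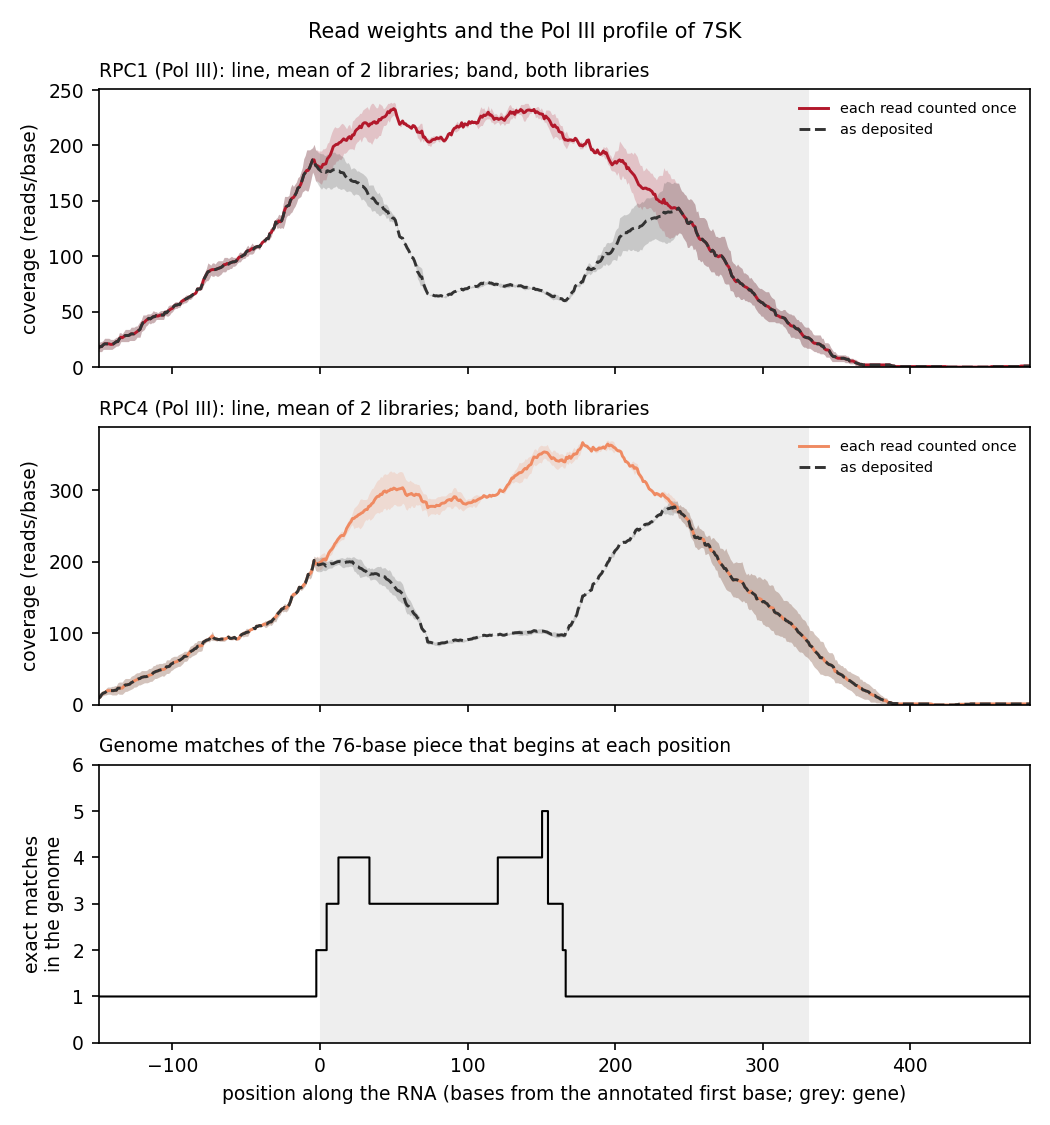
Coverage of RPC1 (top) and RPC4 (middle) along 7SK with each read counted once (solid) and as deposited (dashed), lines being means of 2 libraries and bands both libraries; the bottom panel gives the exact genome matches of the 76-base piece that begins at each position. The deposited dip lies where pieces have 2 to 5 matches, and over +111 to +220 RPC1 averages 207.9 and 207.1 with each read counted once and RPC4 341.6 and 331.5.

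The bases that no shared read can reach, -150 to -3 and +242 to +481, give the levels free of this weighting. Before the start, RPC1 averaged 86.0 and 80.5 reads per base and RPC4 87.8 and 80.7. Per 10000 read equivalents in the file this was 7.43 and 9.78 in RPC1 and 5.78 and 5.02 in RPC4. Input had 1.44 and 7.67 on that scale, its replicate 2 within the range of the Pol III libraries. Over the last 90 bases of the gene, RPC1 averaged 93.2 and 64.6, and RPC4 151.3 and 196.2. Scaled the same way this was 8.06 and 7.85 in RPC1 and 9.96 and 12.2 in RPC4, against 2.34 and 2.81 in input. Whether the 2 subunits differ in these levels was not tested. The level at the gene end divided by that before the start was 0.943 ± 0.199 for RPC1 and 2.08 ± 0.50 for RPC4 (SD, n = 2 each; exact permutation test, two-sided p = 0.333, the smallest that 2 against 2 libraries can give). RPB2 averaged 4.69 and 4.2 over the gene end and 2.51 and 1.26 before the start. H3K4-titled coverage of the gene end was 0 in both libraries, against 0.833 and 0.944 in input.

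Pol III coverage extended upstream of the start and fell soon after the end. The upstream flank averaged 85.1 ± 3.9 reads per base over the 4 Pol III libraries, the gene 128.5 ± 36.7 and the downstream flank 8.83 ± 7.72 (SD, n = 4). The flanks by library were 87.4 upstream and 4.82 downstream in RPC1 replicate 1, and 81.6 and 1.89 in replicate 2. RPC4 had 89.4 upstream and 9.06 downstream in replicate 1, and 82.1 and 19.5 in replicate 2. In all 4 libraries the upstream flank exceeded the downstream one.

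Over the 25 bases just before the start, which hold the last base of the TATA box match, Pol III coverage was 177.3 and 152.5 in RPC1 and 167.6 and 163.9 in RPC4. At the outer edge of the upstream flank the mean of the 4 libraries was 13.5, or 6.44% of the highest mean value of 209.5. Past the gene, the mean fell below 10% of that value from +358 on, 27 bases behind the annotated end and shortly after the TTTT that starts at +351. In the last 75 bases of the stretch it averaged 0.73. Since the 76-base reads come from fragments of about 250 bp, the edges of the signal are known only to about a fragment length. That is longer than a flank of 150 bp.

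Neither comparison of shape passed the threshold for Pol III against input. Gene over flanks was 1.5 ± 0.54 higher in Pol III than in input (log2, ± SE; limma over 478 stretches, adjusted p = 0.0664), and 37% of stretches were called higher. Upstream over downstream flank was 2.78 ± 0.65 higher (limma, adjusted p = 0.0622), and 0.418% of stretches were called higher, with a median of -0.06 over all stretches. The first value depended on the flanks and on input. It was 0.29 with only the 75 bases of each flank nearest to the gene (limma, adjusted p = 0.786), 0.53 without input replicate 2 (limma, adjusted p = 0.294), and 2.47 and called without input replicate 1 (limma, adjusted p = 0.00472). The second was 1.91 without input replicate 1 (limma, adjusted p = 0.166), and was called at 3.05 without RPC1 replicate 1 and at 3.66 without input replicate 2 (limma, adjusted p = 0.0479 and 0.0466). Both comparisons were called with a pseudocount of 1 read (limma, adjusted p = 0.0211 and 0.00274). For RPC1 against RPC4, gene over flanks differed by -0.53 (95% interval -2.01 to 0.95; limma, adjusted p = 0.998) and upstream over downstream flank by 1.94 (0.27 to 3.60; limma, adjusted p = 0.191), and 0% of stretches were called in either, while 16 and 96 stretches had an unadjusted p under 0.05.

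RPB2 coverage of 7SK was higher than that of 67.7% and 71% of regions within its 2 libraries. It averaged 3.01 and 3.17 reads per base over the stretch, against 0.971 and 0.957 in input. With file totals RPB2 was -0.36 against input (95% interval -1.20 to 0.48; limma, adjusted p = 0.445), and 33% of regions were called lower; when anchored it was 1.80 ± 0.37 higher (limma, adjusted p = 0.00147), and 40.3% of regions were called higher. The direction thus depended on the scaling. RPB2 coverage was 2.52 and 1.30 in the upstream flank, 4.43 and 5.38 in the gene and 0.38 and 0.153 in the downstream flank. The recovered RPB2 reads were 19 unique and 26 shared in replicate 1 and 17 unique and 40 shared in replicate 2, so most of them could also come from copies. By unique reads alone the anchored difference was 1.19 ± 0.61 and no longer called (limma, adjusted p = 0.131).

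No difference in shape between RPB2 and Pol III passed the test. RPB2 against Pol III differed by 0.40 for gene over flanks (limma, adjusted p = 0.622; 0.209% of stretches called higher; -0.063 without RPB2 replicate 2) and by -1.98 for upstream over downstream flank (95% interval -3.43 to -0.54; limma, adjusted p = 0.126; 2.51% called lower). With a pseudocount of 1 read the flank difference was called, at -2.31 (limma, adjusted p = 0.00905). Against input, RPB2 gave 1.90 for gene over flanks (limma, adjusted p = 0.159; 3.56% called higher) and 0.80 for upstream over downstream flank (limma, adjusted p = 0.686; 0.837% called higher). With the 75 bases of each flank nearest to the gene these were 0.91 and 1.57 (limma, adjusted p = 0.58 and 0.303), and without input replicate 2 they were 0.93 and 1.68 (limma, adjusted p = 0.216 and 0.262). Leaving out input replicate 1 turned the flank value to -0.076, and raised gene over flanks to 2.87 and past the threshold (limma, adjusted p = 0.0154). At the upstream edge, on the side of C920006O11Rik, RPB2 coverage over -150 to -126 was 1.28 in replicate 1 and 2.16 in replicate 2. Input, from files of lower depth, had 0.72 and 4.76 there. Over the next 25 bases RPB2 was 0.8 and 0, and input 1 and 4.32. Whether any of this RPB2 coverage belongs to C920006O11Rik was not tested.

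The H3K4-titled signal at 7SK was close to none. Its coverage was 0.202 and 0.212 reads per base over the stretch, against 0.971 and 0.957 in input, although its files held 17033 and 26665 read equivalents against 3563 and 3365. In replicate 1 there was no unique read, which allows up to 2.17 of every 10000 read equivalents by the exact interval, and 6 reads shared with copies inside the gene. In replicate 2 there were 3 unique reads and 1 shared read. One of the unique reads lay across the start, and the others reached in from the edges of the stretch.

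With file totals, the H3K4-titled coverage was -4.27 ± 0.37 against input (log2, ± SE; limma, adjusted p = 4.72e-05), where the median region stood at -2.08 and 61.2% of regions were called lower. When anchored, the difference turned to 0.90 ± 0.37 (limma, adjusted p = 0.0468), the median region stood at 3.25 and 65% of regions were called higher. 7SK lay below the median region, and a scaling, with the same factor for all regions of a library, could hardly change that. By unique reads alone, the anchored difference was -0.79 ± 0.61 and was not called (limma, adjusted p = 0.275). Whether the H3K4-titled coverage of 7SK lies above or below input was therefore set by the scaling and by the treatment of shared reads.

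Beside strong Pol III this low level was rare. The gene was proposed with its levels known, so the counts below describe it and are no test. They also use coverage as deposited, with shared reads divided. Of the 77 other regions with at least the Pol III coverage of 7SK, 0 had lower H3K4-titled coverage. Their values ran from 0.35 to 100.2 reads per base, with a median of 12.1. With each read counted once, 7SK had a mean of 0.502 ± 0.298 (SD, n = 2), above the lowest of these values. Shared reads of the other regions were not recounted. Of the 75 other regions within 1.5-fold of its Pol III coverage, 2 were lower and 4 were under 1 read per base, with a median of 8.22. For RPB2, 3 of the 77 regions were lower than 7SK, with a median of 7.35. For the H3K36-titled libraries 43 of 77 were lower, and for input 27 of 77, with medians of 0.204 and 1.15.

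**Figure D4:**
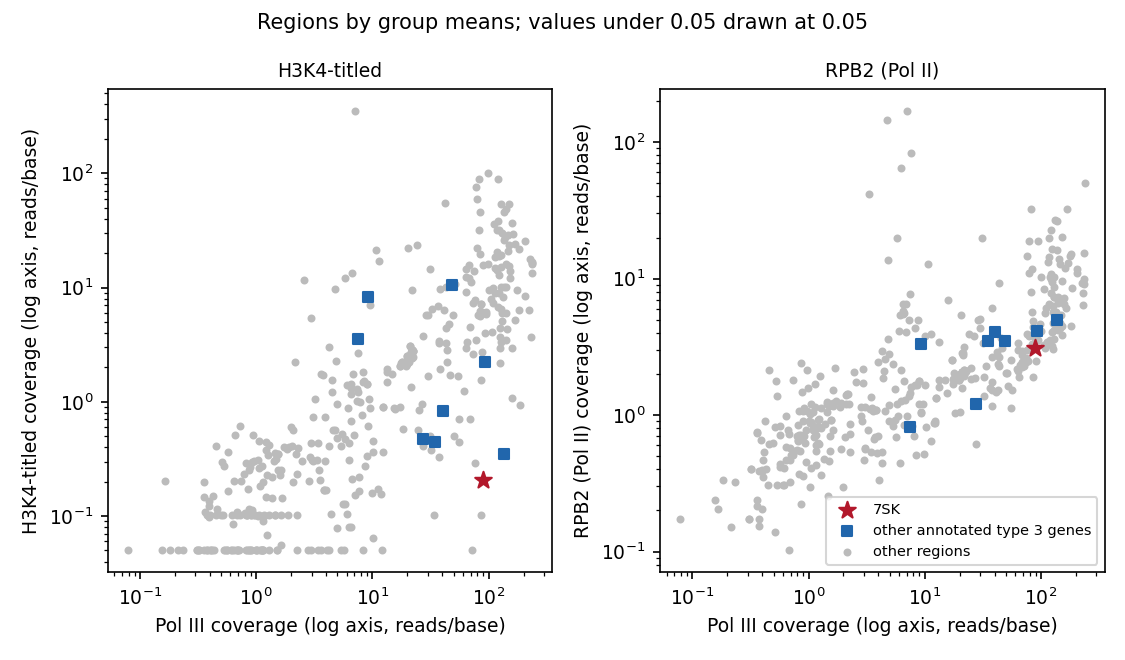
H3K4-titled coverage (left) and RPB2 coverage (right) against Pol III coverage for the 442 merged regions, as group means in reads per base on log axes, with values under 0.05 drawn at 0.05; the star is 7SK and squares are regions with another type 3 gene annotated by name, and the gene beside Parp2 is among the grey points. 7SK has an H3K4-titled coverage of 0.207 beside 89.7 for Pol III, while its RPB2 coverage of 3.09 lies within the cloud.

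The H3K36-titled libraries had few reads on 7SK. Their files held 1754 and 1273 read equivalents, and 7SK had 2 unique and 4 shared reads in replicate 1 and 1 unique read in replicate 2. Coverage was 0.348 and 0.12, against 0.971 and 0.957 in input. The difference was -0.99 ± 0.37 with file totals (limma, adjusted p = 0.0727; 18.9% of regions called lower; median region -1.04) and -0.41 ± 0.37 when anchored (limma, adjusted p = 0.51; 8.82% called lower). Without H3K36-titled replicate 1 the first became -1.51 and was called (limma, adjusted p = 0.00364). H3K4-titled minus H3K36-titled was -3.28 with file totals (limma, adjusted p = 9.26e-05; 38.8% called lower) and 1.32 when anchored (limma, adjusted p = 0.00607; 68.3% called higher), and the direction turned with the scaling.

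Other genes with a type 3 promoter were covered too, 10 in all: U6, U6atac, the RNA of RNase MRP, Y RNAs and an RNA gene beside Parp2 that the annotation gives no family. Pol III coverage of 7SK, 89.7 reads per base, was exceeded at 2 of them. U6atac, the U6 counterpart of the minor spliceosome, had 136.2 ± 59.0 (SD, n = 4), and the RNase MRP gene, whose RNA helps to process ribosomal RNA, had 92.6 ± 24.4. The share of Pol III coverage in the upstream flank was 22.6% at 7SK, within the range of 16.2% to 41.9% at the others. The downstream flank held 2.34% at 7SK, near the low end of the 2.18% to 45.6% at the others. These are shares of whole stretches, which differ in length while each flank is 150 bp, so they also depend on gene length.

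Low H3K4-titled coverage was found at several of them. It was under 1 read per base at 4 of the 10: U6atac with 0.35 ± 0.26, both Y RNAs with 0.549 ± 0.202 and 0.447 ± 0.371, and the U6 gene beside Med16 with 0.829 ± 0.055 (SD, n = 2 each), against 0.207 ± 0.007 at 7SK. The gene beside Parp2 had the highest, 21.3 ± 3.0, with an RPB2 coverage of 12.8 ± 0.2, and a U6 gene on chromosome 12 had 12.8 ± 4.0. As deposited, H3K4-titled coverage as a percentage of Pol III coverage was 0.231% at 7SK and 0.257% at U6atac, the 2 lowest of these genes. Coverage was fractional, from divided reads, over 38.4% of bases at 7SK and 0% at U6atac. With each read counted once, 7SK had 0.502 ± 0.298 H3K4-titled (SD, n = 2) and 137.7 ± 31.6 Pol III (SD, n = 4). Which of the 2 genes was lower thus depended on how shared reads were counted.

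The regions most like 7SK over the 12 libraries were found by Euclidean distance between log2 scaled coverages. The nearest was a tRNA-like sequence with anticodon CCA on chromosome 13, near Btn2a2 (distance 3.11, Pol III 55.8, H3K4-titled 0.712 reads per base). It was followed by one with anticodon GTA near Btn1a1 (distance 3.49, 76.1 and 0.292), the U6 gene beside Med16 (3.56, 40.3 and 0.829), one with anticodon TCG near Btn2a2 (3.98, 33.6 and 0.102) and a pair with anticodons GAA and TTT near Osbp (4.08, 32.15 and 0.377). The anticodons come from a fold of the sequence between the flanks and are not from the annotation. The median distance of all regions from 7SK was 9.71. Since the measure includes all 12 libraries, likeness in Pol III and H3K4-titled coverage was part of how these regions were chosen.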

How the data were processed

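The 12 deposited files give per-base coverage as signal (reads over each base) for fixed stretches; per the labels' protocols chromatin was sonicated, amplified over 15 PCR cycles and sequenced from fragments of about 250 bp, and per the submitters' processing notes the build was mm9. The aligner was not given in the sources used here. File totals ran from 1273 to 160705 read equivalents, which limits the precision of the H3K36-titled and input libraries. Mean coverage per region, scaled and taken as log2 with a pseudocount of 0.083 (the 5th percentile of values above 0), was fitted with limma 3.58.1 (R 4.3.3), with regions under the 0.1 quantile left out and Benjamini-Hochberg adjustment. Levels used all 12 libraries; shape used log2 ratios within stretches of the RPC1, RPC4, RPB2 and input libraries, with a pseudocount of 0.5 reads. Exact matches came from BLAST 2.17.0+, and reads were recovered by linear programming (scipy 1.17.1). The fits were tested on simulated data. Genes named are 7SK, its neighbours, other type 3 genes and the 5 regions nearest to 7SK. The gene, the lists and the tests were chosen with earlier results of these data known. The 1 stretch not present in all files was left out. Alternatives changed the scaling, pseudocount, filter, libraries or read weights.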

Additional observations from a re-analysis of the deposited data

How the results depend on the processing

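Alternatives were another scaling, pseudocount, filter, set of libraries or part of the region, a replicate block, and each library left out in turn; those on read weights were chosen after seeing the data. Pol III against input kept its direction and call in all of them, between 1.27 and 1.41 with a library left out. RPB2 against input turned to 1.80 when anchored, 0.60 by median of ratios, 1.53 as deposited, 0.56 over the gene alone, 0.36 with each read counted once, and 1.19 (unique reads) and 2.52 (counted once) when anchored. H3K4-titled against input turned to 0.90 when anchored and 1.83 when also counted once, and lost its call at -0.79 by unique reads when anchored. H3K36-titled against input gained a call at -1.58 as deposited, and spanned -1.51 to -0.48 with a library left out. H3K4-titled against H3K36-titled turned to 1.32 when anchored and 1.94 when also counted once, and lost its call at -0.039 as deposited and at -0.26 by unique reads when anchored. RPC1 against RPC4, never called, was -0.18 when anchored, -0.58 as deposited, -0.038 over the gene alone, -0.20 and -0.17 by unique and once-counted reads when anchored, and -0.041 to 0.23 with a library left out.

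With a pseudocount of 1 read, gene over flanks (1.46) and upstream over downstream flank (2.85) for Pol III against input gained calls, as did upstream over downstream flank for RPB2 against Pol III (-2.31). With a library left out, Pol III against input spanned 0.53 to 2.47 (called without input replicate 1) for gene over flanks and 1.91 to 3.66 (called without RPC1 replicate 1 or input replicate 2) between flanks; RPB2 against input spanned 0.93 to 2.87 and -0.076 to 1.68; RPB2 against Pol III spanned -0.063 to 0.86 for gene over flanks. The summit of RPC1, -4.5, became 4 after smoothing over 25 bases, 94.6 as centre of mass and 95 counted once, and that of RPC4, 235, became 136.2 as centre of mass, 186.5 counted once and 242 by unique reads. Counted in single stretches, 66.6% were lower than 7SK for RPB2, 27% for H3K4-titled and 45.9% for input, against 69.3%, 29.9% and 44.5% of regions. With only the 75 bases of each flank nearest to the gene, gene over flanks was 0.29 for Pol III and 0.91 for RPB2 against input. The cause of these changes was not tested.

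Replicate numbers did not pair the libraries, with correlations of deviations between -0.120 and 0.098. The replicate block left Pol III against input at 1.34 and changed no call at 7SK, while for gene over flanks the stretches called were 0 against 17 higher (RPB2 against input) and 7 against 78 lower (RPB2 against Pol III). Crossing the RPC4 numbers in a block of RPC1 and RPC4 called 32 regions higher and 39 lower, against 14 and 15 in the same fit of RPC1 and RPC4 alone without a block, and 7SK was not among them.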
